A study of Arabidopsis thaliana with 30 samples.

Results

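The 8 genes described here encode the proteins that direct transcription in the plastid of Arabidopsis from the nucleus. They are the 6 sigma factors SIG1 to SIG6 and the 2 phage-type RNA polymerases RPOTp and RPOTmp, and they were taken by locus from a table of 27827 genes. Plastid genes are read by a bacterial-type polymerase, PEP, whose core is encoded in the plastid genome, and by phage-type polymerases encoded in the nucleus, known together as NEP. PEP needs a sigma factor to recognise a promoter, and all sigma factors of the plant plastid are made in the cytosol from nuclear genes. In a developing chloroplast NEP is known for reading housekeeping genes, the genes of the PEP core among them, and PEP for reading photosynthesis genes.

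The samples were after-ripened seeds of the Columbia accession (Col-0) that carried no treatment other than imbibition in water at 22 °C under continuous light. Dry seeds and seeds or seedlings imbibed for 6, 26, 48 and 72 h were taken, with time given as hours after imbibition began (HAI), and total mRNA (T) and polysomal mRNA (P), which is mRNA from the polysome region of a sucrose gradient, were hybridised to Affymetrix Gene 1.1 ST arrays. There were 3 biological replicates in each of the 10 groups, or 30 arrays, and each replicate was described as the bulked seed of many plants. RNA came from whole seeds or seedlings, so embryo, endosperm and seed coat were not separated.

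Levels are RMA values on the log2 scale, in which a step of 1 is a factor of 2 in signal, and a level of 4 or below was treated as noise. Because RMA makes the arrays alike, every change is relative to the other genes. The array medians lay between 3.53 and 4.15, and replicates correlated at r = 0.965 to 0.991 across genes. The mean of 4 mature seed mRNAs (2 cruciferins, a 2S albumin and a vicilin-like protein) was between 11.73 and 11.76 in the arrays of total mRNA from dry seeds and between 4.12 and 4.28 at 72 HAI. That of 4 photosynthesis mRNAs went from between 3.58 and 4.81 to between 10.64 and 10.70. Of 3 endosperm markers in total mRNA, EPR1 averaged 11.20 before imbibition and 6.96 at 72 HAI, MAN5 went from 6.57 to 4.16, and MAN7 was at 4.16 and 4.31 with 7.76 at 26 HAI between them, and the seed coat markers TT10 and BAN stayed below the noise level in all groups. One array stood apart, since in replicate 3 of polysomal mRNA at 72 HAI the mature seed markers averaged 7.66, against 4.36 and 4.19 in the other 2 replicates. The main values that rest on it are also given without it.

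All 8 members were above the noise level in all replicates of at least one group and were among the 17061 genes tested. The mRNAs of SIG2 and RPOTp were above it in 30 of 30 arrays, those of SIG6 in 28, SIG4 in 26, SIG3 in 24, SIG1 in 22 and SIG5 in 20. RPOTmp was above it in 18 arrays, and none of those were from 48 or 72 HAI.

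Between dry seeds and 72 HAI the mRNAs of 5 sigma factors rose and those of both phage-type polymerases fell. In total mRNA SIG1 rose 18.7-fold, SIG2 9.62-fold, SIG4 7.80-fold, SIG6 5.77-fold and SIG3 2.99-fold, whereas RPOTp fell 3.22-fold and RPOTmp 3.14-fold. SIG5 dipped in between and ended at -0.35 on the log2 scale from where it began, which did not pass the test. A gene was called when limma gave an adjusted p (Benjamini-Hochberg over all genes tested) below 0.05 and a log2 change above 1 in size. By this rule 7 of the 8 members were called in total mRNA, 5 upwards and 2 downwards, where 60.1% of all genes tested were called (33.0% up and 27.1% down). In polysomal mRNA 6 were called, 4 upwards and 2 downwards, where 61.2% of all genes were called (30.2% up and 31.1% down). With replicate 3 of 72 HAI left out, 4 were again called upwards and 2 downwards, where 61.1% of all genes were called. The median change of the members was 2.06 in total and 1.36 in polysomal mRNA (1.54 without that array), against 0.06 and -0.14 over all genes. In whole seeds a lower share of cells of one type and less RNA per cell cannot be told apart, and p-values refer to the spread among these 3 bulks per group.

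**Figure D1:**
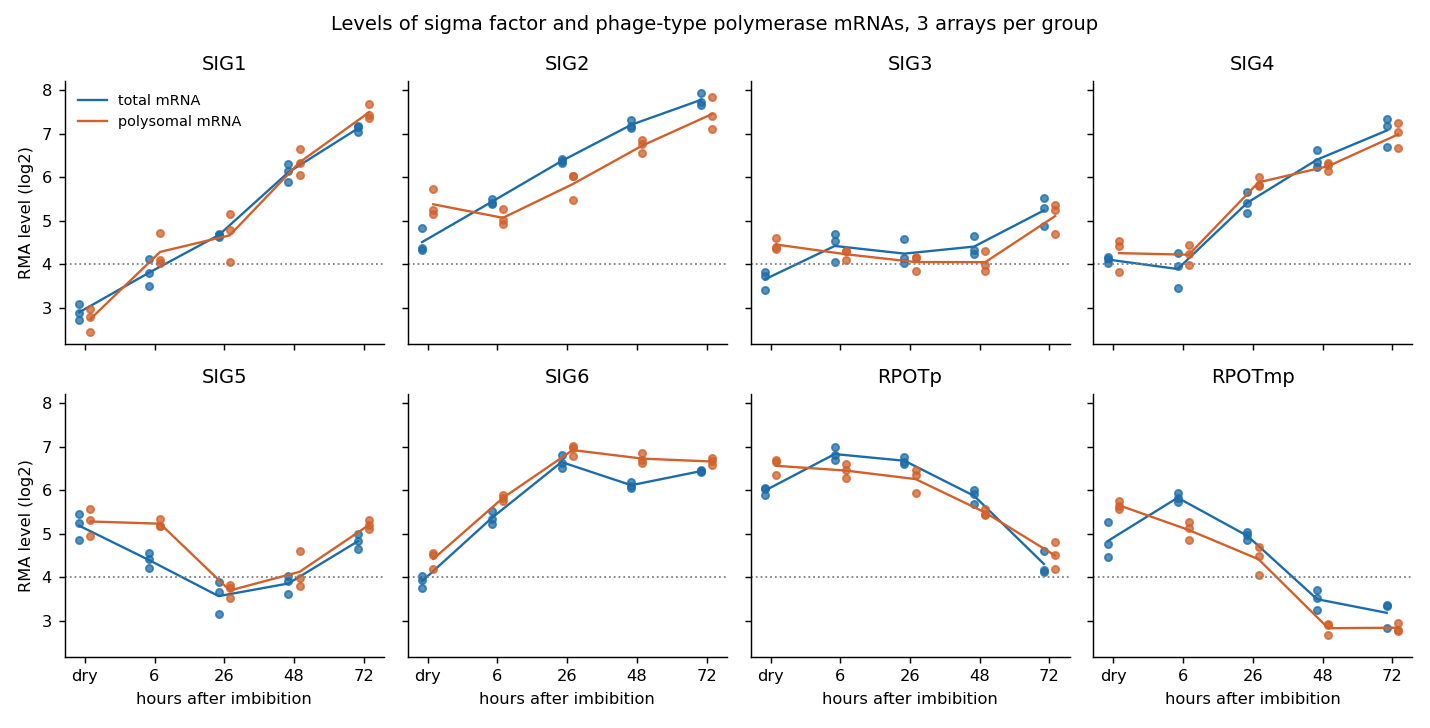
RMA level (log2) of each member against time after the start of imbibition, with a point per array, lines through the means of 3 arrays, total mRNA in blue, polysomal mRNA in orange, and the noise level of 4 dotted. SIG1, SIG2 and SIG4 climb to their highest means at 72 HAI, SIG5 dips to 3.57 in total mRNA at 26 HAI, and RPOTmp lies below the dotted line from 48 HAI.

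SIG1 (AT1G64860), a major sigma factor known for the transcription of photosystem genes, changed most over the course. Its total mRNA read 2.72, 3.09 and 2.89 in dry seeds and 3.52, 4.12 and 3.80 at 6 HAI. Readings of 4.71, 4.63 and 4.68 followed at 26 HAI and of 5.90, 6.15 and 6.30 at 48 HAI, and the highest, 7.17, 7.05 and 7.16, came at 72 HAI. Each time point lay above the one before with no overlap of replicates. The change from dry seeds to 72 HAI was 4.22 (SE 0.23) on the log2 scale (adjusted p = 3.033e-15, limma), but it started below the noise level, so its size depends in part on the background.

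Polysomal SIG1 mRNA read 2.45, 2.80 and 2.98 in dry seeds, 4.11, 4.73 and 4.03 at 6 HAI, and 5.17, 4.78 and 4.06 at 26 HAI. At 48 HAI it read 6.05, 6.34 and 6.65, and at 72 HAI 7.68, 7.44 and 7.37. The replicates of 6 and 26 HAI overlapped, and the change between them was 0.38 (adjusted p = 0.1597, limma). The steps on either side were larger, at 1.54 from dry seeds to 6 HAI (adjusted p = 1.647e-06) and 1.67 from 26 to 48 HAI (adjusted p = 6.367e-07). From dry seeds to 72 HAI the polysomal mRNA rose by 4.75 (SE 0.23), and by 4.82 without replicate 3 of 72 HAI.

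SIG2 (AT1G08540), the sigma factor known for the transcription of plastid tRNA genes, among them that of the glutamyl-tRNA from which chlorophyll is made, rose in smaller and more even steps. Its total mRNA read 4.84, 4.32 and 4.38 in dry seeds, 5.40, 5.42 and 5.51 at 6 HAI, and 6.42, 6.38 and 6.33 at 26 HAI. At 48 HAI it read 7.18, 7.31 and 7.14, and at 72 HAI 7.74, 7.67 and 7.94. No interval passed 2-fold, the largest being 0.94 from 6 to 26 HAI (SE 0.19, adjusted p = 0.0001258, limma), yet all 4 were positive with an adjusted p of at most 0.01809 and together made 3.27.

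In the polysomes SIG2 did not rise at first. Polysomal SIG2 mRNA read 5.26, 5.16 and 5.73 in dry seeds and 5.01, 5.27 and 4.93 at 6 HAI, with overlapping replicates and a change of -0.31 (adjusted p = 0.1565, limma). From 6.03, 6.03 and 5.48 at 26 HAI it went to 6.56, 6.86 and 6.77 at 48 HAI. The 72 HAI arrays read 7.41, 7.86 and 7.10. Its total change over the course was 2.07 (SE 0.19, adjusted p = 1.016e-10), or 2.25 without replicate 3 of 72 HAI.

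SIG4 (AT5G13730), known for the transcription of the plastid gene ndhF, was flat until 6 HAI and rose afterwards in both fractions. Total SIG4 mRNA read 4.13, 4.18 and 4.03 in dry seeds, 3.96, 3.47 and 4.26 at 6 HAI, and 5.66, 5.18 and 5.41 at 26 HAI. It went on to 6.35, 6.24 and 6.64 at 48 HAI and 7.19, 7.35 and 6.69 at 72 HAI. Dry seeds and 6 HAI overlapped (-0.22, adjusted p = 0.3925, limma), and the step from 6 to 26 HAI was 1.52 (SE 0.21, adjusted p = 8.147e-07). Its polysomal mRNA read 4.42, 3.83 and 4.54 in dry seeds, 4.24, 4.0 and 4.44 at 6 HAI, and 6.01, 5.81 and 5.84 at 26 HAI. The later polysomal readings were 6.28, 6.15 and 6.34 at 48 HAI and 7.03, 7.26 and 6.67 at 72 HAI. Here too the first interval showed overlap, and the step from 6 to 26 HAI was 1.66 (adjusted p = 2.238e-07).

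SIG6 (AT2G36990), known for its role in early greening of the cotyledons, was past 2-fold in both fractions by 6 HAI. Total SIG6 mRNA read 3.77, 4.03 and 3.94 in dry seeds, 5.54, 5.33 and 5.24 at 6 HAI, and 6.52, 6.81 and 6.63 at 26 HAI. After that it read 6.06, 6.11 and 6.19 at 48 HAI and 6.44, 6.47 and 6.42 at 72 HAI. SIG6 thus had its highest mean, 6.65, at 26 HAI, and was the only member called in total mRNA between dry seeds and 6 HAI, by 1.45 (SE 0.13, adjusted p = 2.879e-10, limma). A further 1.28 followed from 6 to 26 HAI (adjusted p = 3.024e-09), and then a dip of -0.53 (adjusted p = 0.0007519) that did not reach 2-fold. Total SIG6 mRNA averaged 3.92 in dry seeds, below the noise level, so the size of rises from there depends in part on the background.

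Polysomal SIG6 mRNA read 4.20, 4.56 and 4.52 in dry seeds, 5.76, 5.89 and 5.84 at 6 HAI, and 6.98, 7.01 and 6.79 at 26 HAI. It read 6.70, 6.86 and 6.63 at 48 HAI and 6.58, 6.74 and 6.67 at 72 HAI. From 26 HAI on, neighbouring time points overlapped, with changes of -0.20 (adjusted p = 0.1835, limma) and -0.07 (adjusted p = 0.7107), the latter also without replicate 3 of 72 HAI.

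SIG3 (AT3G53920), known for transcription from the psbN promoter, stayed close to the noise level for most of the course. Total SIG3 mRNA read 3.73, 3.83 and 3.41 in dry seeds, 4.05, 4.53 and 4.70 at 6 HAI, and 4.57, 4.14 and 4.03 at 26 HAI. At 48 HAI it read 4.25, 4.33 and 4.65, and at 72 HAI 4.89, 5.53 and 5.31. The replicates of 6, 26 and 48 HAI overlapped, and those of 72 HAI lay above all others. Polysomal SIG3 mRNA read 4.36, 4.61 and 4.41 in dry seeds, 4.31, 4.30 and 4.09 at 6 HAI, and 4.15, 4.16 and 3.85 at 26 HAI. It read 4.31, 3.86 and 3.99 at 48 HAI and 5.26, 5.37 and 4.70 at 72 HAI. The last was the only consecutive interval called for SIG3, at 1.06 in polysomal mRNA (SE 0.20, adjusted p = 0.0001749, limma) and 1.26 without replicate 3 of 72 HAI. That call was lost without replicate 1 or 2 of polysomal mRNA at 72 HAI, where the changes were 0.98 and 0.93. It was also lost without replicate 2 of polysomal mRNA at 48 HAI.

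SIG5 (AT5G24120), a sigma factor induced by light and stress that reads a blue-light promoter of psbD, was the only member in which a fall and a later rise both passed the 2-fold limit, which they did in polysomal mRNA. Its total mRNA read 5.24, 4.87 and 5.45 in dry seeds, 4.22, 4.42 and 4.56 at 6 HAI, and 3.16, 3.90 and 3.66 at 26 HAI. It recovered from 3.62, 3.93 and 4.04 at 48 HAI to 5.0, 4.84 and 4.66 at 72 HAI. The replicates of dry seeds and 72 HAI overlapped, and the change between them was -0.35 (SE 0.20, adjusted p = 0.1103, limma).

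The fall of SIG5 came later in the polysomes. Polysomal SIG5 mRNA read 5.57, 4.96 and 5.33 in dry seeds and 5.18, 5.34 and 5.19 at 6 HAI, which overlapped (-0.05, adjusted p = 0.8532, limma). From 3.53, 3.82 and 3.75 at 26 HAI it went to 3.98, 4.60 and 3.81 at 48 HAI. The 72 HAI arrays read 5.33, 5.11 and 5.20. The fall from 6 to 26 HAI was -1.53 (SE 0.20, adjusted p = 5.094e-07). The rise from 48 to 72 HAI was 1.08 (adjusted p = 0.0001326), or 1.09 without replicate 3 of 72 HAI. Without replicate 3 of polysomal mRNA at 48 HAI the rise was short of 2-fold and its call was lost. The lowest values lay below the noise level, so the depth of the trough is set in part by the background.

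RPOTp (AT2G24120, SCA3 in RefSeq), the phage-type polymerase of the plastid, had its highest total mRNA at 6 HAI and fell late. Total RPOTp mRNA read 6.04, 6.05 and 5.90 in dry seeds, 6.99, 6.81 and 6.71 at 6 HAI, and 6.61, 6.77 and 6.66 at 26 HAI. It declined to 6.01, 5.68 and 5.93 at 48 HAI and 4.13, 4.62 and 4.18 at 72 HAI. The levels of 6 and 26 HAI overlapped (-0.15, adjusted p = 0.4524, limma), as did those of dry seeds and 48 HAI. The last step was the steepest, at -1.56 (SE 0.17, adjusted p = 6.325e-08).

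In the polysomes RPOTp had no early peak. Its polysomal mRNA read 6.64, 6.36 and 6.69 in dry seeds, 6.62, 6.46 and 6.29 at 6 HAI, and 6.48, 6.35 and 5.95 at 26 HAI. It then read 5.43, 5.46 and 5.58 at 48 HAI and 4.19, 4.82 and 4.51 at 72 HAI. The first 3 time points overlapped, and the decline from 48 to 72 HAI was -0.99 (SE 0.17, adjusted p = 3.522e-05, limma), just short of 2-fold, and -0.99 also without replicate 3 of 72 HAI. Over the whole course it fell by 2.06 with all arrays and also without replicate 3 of 72 HAI.

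RPOTmp (AT5G15700), the phage-type polymerase that works in both mitochondria and plastids, fell earlier than RPOTp. Its total mRNA read 5.27, 4.48 and 4.77 in dry seeds, 5.73, 5.94 and 5.83 at 6 HAI, and 4.86, 5.04 and 4.97 at 26 HAI. At 48 HAI it read 3.72, 3.24 and 3.54, and at 72 HAI 3.35, 2.85 and 3.36. The 6 HAI arrays were above all others. The step from 26 to 48 HAI was called, at -1.46 (SE 0.19, adjusted p = 2.453e-07, limma), and ended below the noise level, where 48 and 72 HAI overlapped.

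Polysomal RPOTmp mRNA was highest in dry seeds, at 5.65, 5.76 and 5.57, and read 5.13, 5.27 and 4.87 at 6 HAI and 4.48, 4.71 and 4.07 at 26 HAI. It read 2.93, 2.68 and 2.90 at 48 HAI and 2.80, 2.96 and 2.78 at 72 HAI. The arrays of dry seeds, 6 and 26 HAI did not overlap with each other, and the step from 26 to 48 HAI was -1.58 (SE 0.19, adjusted p = 6.713e-08, limma). Because the levels after it were noise, the change of -2.81 from dry seeds to 72 HAI (-2.78 without replicate 3 of 72 HAI) is set in part by the background.

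**Figure D2:**
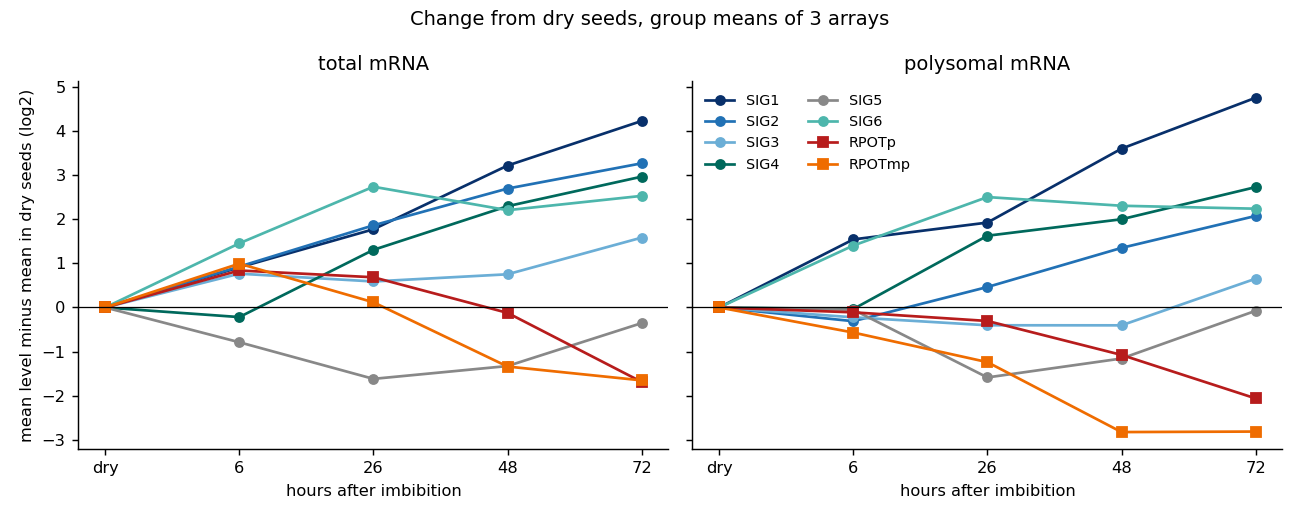
Mean level of each member minus its mean in dry seeds (log2) against time after the start of imbibition, in total mRNA (left) and polysomal mRNA (right), with sigma factors as circles and phage-type polymerases as squares, each mean over 3 arrays. By 72 HAI SIG1 is at 4.22 and 4.75, whereas RPOTmp is at -1.65 and -2.81.

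Between consecutive time points few members passed the 2-fold limit at once, and those that did changed from one interval to the next. The intervals share arrays, so their values are not independent. From dry seeds to 6 HAI only SIG6 was called in total mRNA, where 26.8% of all genes were, while SIG1 and SIG6 were called in polysomal mRNA, where 32.1% were. From 6 to 26 HAI SIG4 and SIG6 rose in total mRNA (25.7% of all genes called). In polysomal mRNA SIG4 and SIG6 rose and SIG5 fell (24.5% of all genes called).

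From 26 to 48 HAI SIG1 rose and RPOTmp fell in both fractions, with 30.2% of all genes called in total and 28.7% in polysomal mRNA. From 48 to 72 HAI SIG1 rose and RPOTp fell in total mRNA (12.0% of all genes called). In polysomal mRNA SIG1, SIG3 and SIG5 rose over that interval, with or without replicate 3 of 72 HAI (13.9% of all genes called, and 14.9% without it). The call of SIG1 in total mRNA from 48 to 72 HAI stood at the limit, with a change of 1.01 (SE 0.23, adjusted p = 0.00097, limma), and was lost when replicate 1 of total mRNA at 48 HAI (0.90), replicate 1 at 72 HAI (0.99) or replicate 3 at 72 HAI (0.99) was left out.

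Without a limit on the fold, at an adjusted p below 0.05 alone, all 6 sigma factors rose in total mRNA between 48 and 72 HAI, by 0.32 (SIG6, adjusted p = 0.04712, limma) to 1.01 (SIG1). RPOTp fell over the same interval, and RPOTmp changed by -0.31 (adjusted p = 0.2037). By this looser rule 35.1% of all genes tested were called in that interval, and 15.4% of all genes tested were called upwards. Between dry seeds and 6 HAI the looser rule took 6 members up and SIG5 down in total mRNA, where 55.4% of all genes were called. The members that rose then included both phage-type polymerases, RPOTp by 0.84 (adjusted p = 0.0001177) and RPOTmp by 0.99 (adjusted p = 5.843e-05), so that in the first 6 h polymerases and most sigma factors moved the same way in total mRNA.

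**Figure D3:**
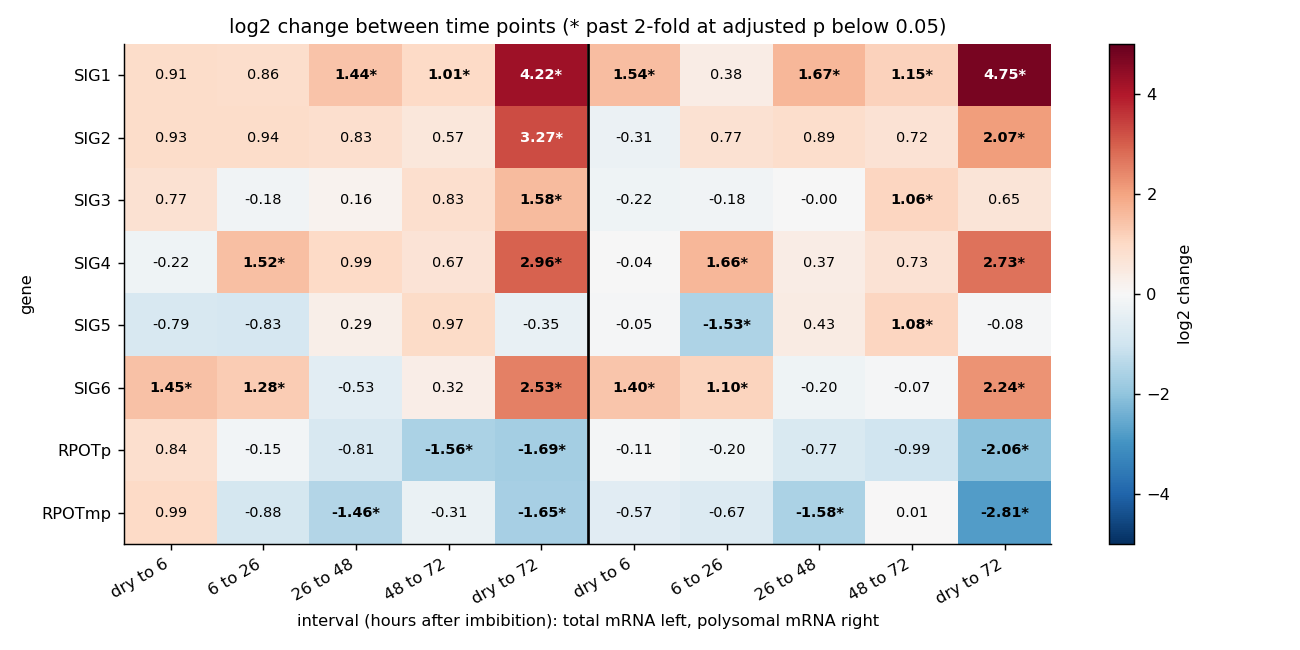
log2 change of each member (rows) between time points (columns), for total mRNA in the left block and polysomal mRNA in the right, with red for a rise, blue for a fall, and bold with a star where the change passed 2-fold at an adjusted p below 0.05. SIG6 is starred in the first 2 intervals of both blocks, and the stars of RPOTp and RPOTmp are all on falls.

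Polysome occupancy, the polysomal minus the total level on the log2 scale, compares the share of an mRNA in polysomes with that of other genes. Counts at an unadjusted p below 0.05 are given here and below without the share of all genes, which was not computed at that limit. They do not set the genes counted apart from others. In dry seeds 0 of 8 members passed the 2-fold limit in limma, where 3.39% of all genes did, and 5 had an unadjusted p below 0.05. The same 5 were above 0 at an adjusted p below 0.05, namely SIG2 by 0.87 (adjusted p = 0.001833), RPOTmp by 0.82 (0.002921), SIG3 by 0.80 (0.007084), RPOTp by 0.57 (0.01685) and SIG6 by 0.51 (0.00557), where 20.4% of all genes were called at any fold. The members' median was 0.54, against 0.09 over all genes.

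At 6 HAI that order had changed. The occupancy of RPOTmp was -0.74 (SE 0.19, adjusted p = 0.00591, limma), that of SIG2 -0.37 (adjusted p = 0.1658), that of RPOTp -0.38 (adjusted p = 0.1077) and that of SIG3 -0.19. SIG5 stood at 0.83 (adjusted p = 0.00497) and SIG6 at 0.46 (adjusted p = 0.01102), with all their polysomal arrays above all their total arrays. No member passed 2-fold (0 of 8, with 5 at an unadjusted p below 0.05), and 3.97% of all genes did.

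The change in occupancy from dry seeds to 6 HAI was tested directly as a contrast of 4 groups. SIG2 fell by 1.24 (SE 0.26, adjusted p = 0.002286, limma) and RPOTmp by 1.56 (SE 0.26, adjusted p = 0.000342), so 2 of 8 members were called, both downwards, where 9.23% of all genes were called and 7.05% downwards. For both genes the total mRNA was higher at 6 HAI than in dry seeds, by 0.93 and 0.99, while the polysomal mRNA changed by -0.31 and -0.57. RPOTp (-0.95, adjusted p = 0.007065) and SIG3 (-0.99, adjusted p = 0.01972) fell by less than the limit. SIG1 (0.63, adjusted p = 0.1775) and SIG5 (0.74, adjusted p = 0.07795) were positive without passing the test, and SIG4 and SIG6 were at 0.18 and -0.05. In dry seeds SIG1 in both fractions and SIG3 and SIG6 in total mRNA averaged below the noise level, which limits the size of their changes. After a further quantile normalization of the arrays the change of SIG2 was -0.83 and no longer passed 2-fold.

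After 6 HAI no change in occupancy was called for any member. From 6 to 26 HAI the lowest adjusted p among the 8 was 0.7554, with 1 unadjusted p below 0.05 and 0.0234% of all genes called by limma. From 26 to 48 HAI the lowest was 0.2352, again with 1 unadjusted p below 0.05 (4.40% of all genes called), and from 48 to 72 HAI 0.3694, with 2 (0.205% of all genes called), or 0.4126 without replicate 3 of polysomal mRNA at 72 HAI. The occupancy of SIG2 remained below 0, at -0.53 at 26 HAI (adjusted p = 0.04326) and -0.48 at 48 HAI (adjusted p = 0.04514). That of RPOTmp was -0.54 (adjusted p = 0.04036) and -0.67 (adjusted p = 0.006476), although RPOTmp at 48 HAI was noise in both fractions. SIG6 stood at 0.61 at 48 HAI (adjusted p = 0.0005168).

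No member passed 2-fold at 26, 48 or 72 HAI, where limma called 3.49%, 10.1% and 11.8% of all genes, and the members with an unadjusted p below 0.05 numbered 5, 4 and 0. At 72 HAI the occupancies ran from -0.34 for RPOTmp, which was noise in both fractions, to 0.38 for SIG5. Without replicate 3 of polysomal mRNA at 72 HAI the ends were -0.31 for RPOTmp and 0.44 for SIG1.

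**Figure D4:**
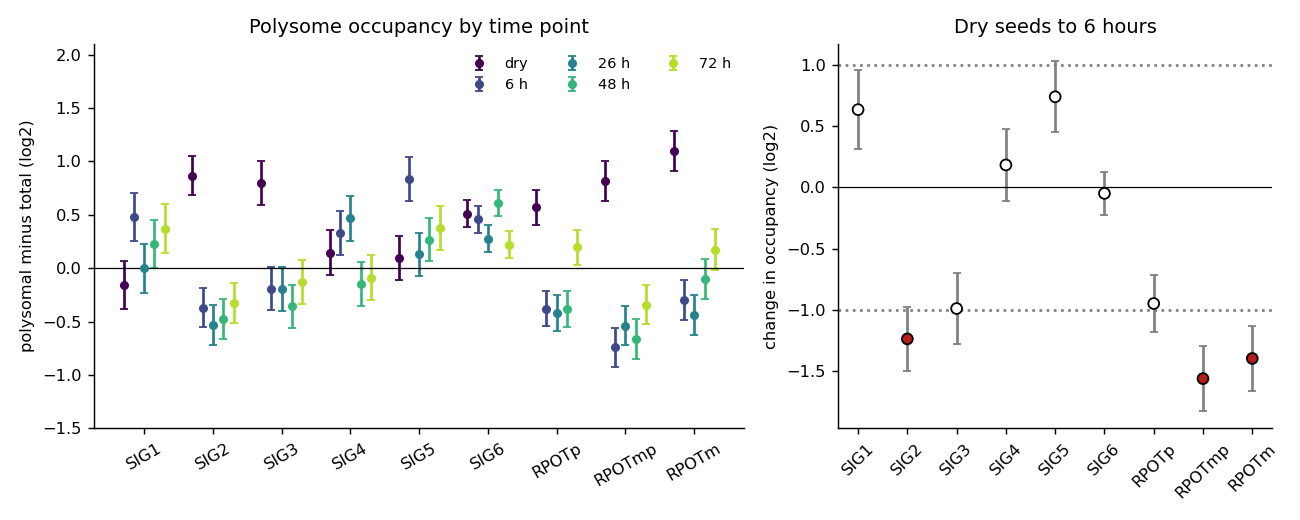
Left, polysome occupancy (polysomal minus total, log2) of the 8 members and RPOTm at each time point, with dry seeds in dark purple and 72 HAI in yellow-green. Right, its change from dry seeds to 6 HAI, filled in red where called and with dotted lines at 2-fold. Bars are the standard errors of the fit over 3 arrays per group. SIG2, RPOTmp and RPOTm are the filled points, at -1.24, -1.56 and -1.40.

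The third phage-type polymerase, RPOTm (MGP3 in RefSeq), works in mitochondria and is no member, but was set beside the other 2. Its total mRNA rose by 1.78 from dry seeds to 6 HAI (SE 0.19, adjusted p = 1.092e-08, limma) and fell by 1.66 from 26 to 48 HAI (adjusted p = 3.843e-08). Its polysomal mRNA changed by 0.38 in the first interval (adjusted p = 0.08437) and its occupancy fell by 1.40 (SE 0.27, adjusted p = 0.001003). In the same interval the occupancies of RPOTmp and RPOTp changed by -1.56 and -0.95, so all 3 polymerases were lower on this scale at 6 HAI than in dry seeds.

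Over the means of the 10 groups the members fell into sets of like course, given as a description since the groups share fractions and time. SIG1, SIG2 and SIG4 correlated with each other at r = 0.93 to 0.94 and RPOTp with RPOTmp at 0.86. SIG4 and SIG1 ran most against RPOTmp, both at r = -0.91. SIG5 followed none of the others closely, between -0.59 with SIG6 and 0.25 with SIG3.

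Among all genes tested that are no members, the course most like that of SIG1 was that of HCF244 (r = 0.99 over 10 group means), which is known for the translation of psbA, followed by AT1G13930 (r = 0.99). RPOTp was most like LON1 and GYRB2 (both at r = 0.99), an organellar protease and a subunit of organellar gyrase. RPOTmp was most like NOV (r = 0.99) and MSL10 (r = 0.98), and SIG2 like AT3G49140 (r = 0.99) and CESA5 (r = 0.98), a subunit of cellulose synthase. SIG5 was most like SRC2 (r = 0.96) and ATAF2 (r = 0.94), a NAC transcription factor. SIG3 had the loosest partners, emb2076 and AT1G65510, at r = 0.91 and 0.89. SIG4 went with AT1G54410 (r = 0.996) and AT1G69030 (r = 0.99), and SIG6 with AT1G15290 and TIFY8 (both at r = 0.99).

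The PEP-associated proteins (PAPs) join the core enzyme in the chloroplast, and the mRNAs of all 12 were tested. Most of their called rises fell between 6 and 26 HAI, and their called falls between 48 and 72 HAI. In total mRNA 2 PAP genes passed the limits upwards from dry seeds to 6 HAI, PAP3 by 1.27 and PAP6 by 1.16, and 7 from 6 to 26 HAI, when 26.8% and 25.7% of all genes were called in either direction. The 7 were led by PAP12 with 3.24 (SE 0.15, adjusted p = 3.644e-15, limma). From 26 to 48 HAI limma called 0 of 12, with 5 at an unadjusted p below 0.05, all of them up. From 48 to 72 HAI 6 of 12 were called downwards, where 12.0% of all genes were called, PAP6 by 1.88 (adjusted p = 2.639e-09) and PAP3 by 1.53 (adjusted p = 1.245e-07) among them, and the list's median was -0.91 against -0.06 over all genes. Over that interval the members' median was 0.62.

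From dry seeds to 72 HAI 5 of 12 PAP genes were called upwards in total mRNA, where 33.0% of all genes were, and 0 downwards, while at an unadjusted p below 0.05 limma had 9 up and 1 down. No share of all genes stands beside the unadjusted counts. PAP12 was the foremost with 4.96, and PAP9, an iron superoxide dismutase, followed with 1.68. In polysomal mRNA 4 of 12 were called upwards, where 30.2% of all genes were, PAP12 by 6.04 and PAP9 by 2.72, or by 5.93 and 2.69 without replicate 3 of 72 HAI. In the occupancy change from dry seeds to 6 HAI PAP12 rose by 1.17 (adjusted p = 0.0007725, limma) and PAP3 fell by 1.04 (adjusted p = 0.004322).

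**Figure D5:**
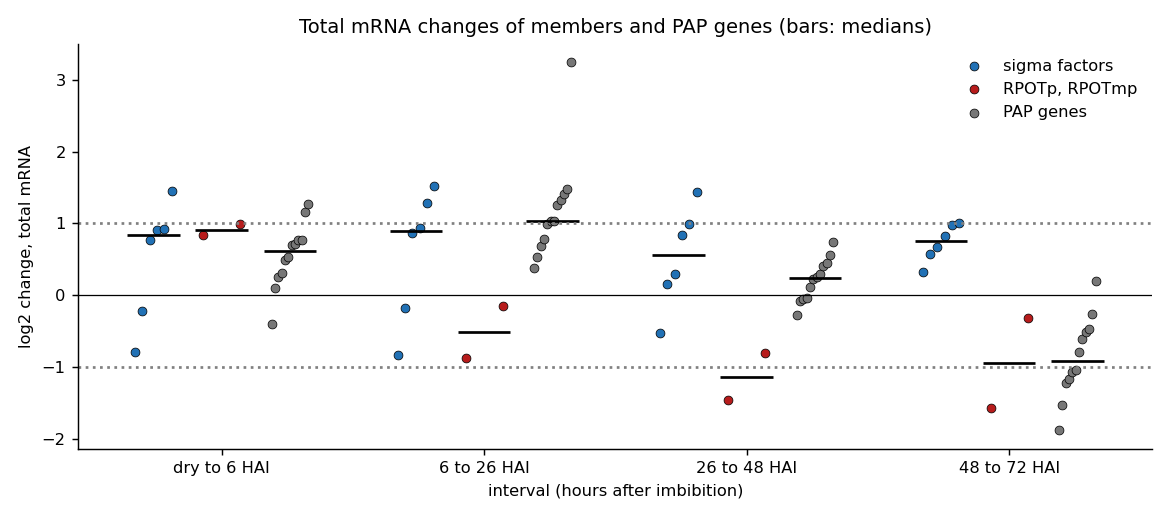
log2 change in total mRNA over each interval for the 6 sigma factors (blue), RPOTp and RPOTmp (red) and the 12 PAP genes (grey), with a point per gene, black bars at group medians and dotted lines at 2-fold. Between 48 and 72 HAI all sigma factors lie between 0.32 and 1.01, and 6 PAP genes lie below the lower dotted line.

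Of 8 genes for regulators and partners of PEP, 7 were tested, and SIB1, for a sigma factor binding protein, was not above the noise level in all replicates of any group. SIB2, its paralogue, fell by 1.45 in total mRNA from dry seeds to 6 HAI (adjusted p = 1.276e-05, limma) and rose by 1.88 from 48 to 72 HAI (adjusted p = 1.018e-06). SIG5 was at -0.79 and 0.97 in those intervals, short of the 2-fold limit. At an adjusted p below 0.05 alone, 4 of 6 sigma factors rose and 1 fell in the first of them, and 6 rose in the second. PRIN2, a protein of the redox control of PEP, rose by 1.02 and 1.59 in the first 2 intervals and fell by 1.34 from 48 to 72 HAI. FLN2, a fructokinase-like protein, rose by 1.19 from 6 to 26 HAI and fell by 1.43 from 48 to 72 HAI in total mRNA. From dry seeds to 72 HAI 2 of the 7 were called upwards in total mRNA, where 33.0% of all genes were. They were GUN1, a protein of plastid-to-nucleus signalling, by 1.18 and PRIN2 by 1.51. DG1 was called downwards by 1.11, where 27.1% of all genes were called downwards. CSK, the chloroplast sensor kinase, fell by 1.31 in polysomal mRNA from dry seeds to 6 HAI (adjusted p = 1.883e-06). Over the whole course 0 of the 7 were called upwards in polysomal mRNA, where 30.2% of all genes were. Downwards 2 were called, SIB2 by 1.23 and DG1 by 1.35, where 31.1% of all genes were called downwards. Without replicate 3 of 72 HAI DG1 fell by 1.11.

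Of 22 loci of the plastid genome that were listed, 4 were in the table. From dry seeds to 72 HAI mean total mRNA went from 12.02 to 12.24 for psbA and from 10.15 to 12.29 for psbE. It went from 11.28 to 11.90 for clpP and from 8.51 to 10.31 for rpoC2. In total mRNA psbA averaged 11.71 or above at every time point, and whether its signal was near a ceiling was not tested. How the labelling kit, which was not settled, takes up plastid RNA was not tested either. Because so few of the listed loci were present, counts are given for the 15 rows of the table whose locus lies in the plastid genome. That set was chosen after the table was seen. From dry seeds to 6 HAI limma called 0 of the 15 up and 2 down in total mRNA. In that interval 26.8% of all genes were called in either direction. At an unadjusted p below 0.05 limma had 1 of the 15 up and 10 down. At an adjusted p below 0.05 and any fold, 55.4% of all genes were called in that interval. These unadjusted counts alone therefore do not set the 15 apart. From 6 to 26 HAI 8 rose and from 26 to 48 HAI 7 rose, where 25.7% and 30.2% of all genes were called in either direction. From 48 to 72 HAI 0 were called, where 12.0% of all genes were, and 7 were up at an unadjusted p below 0.05. The medians over these 3 intervals were 1.23, 0.95 and 0.33. From dry seeds to 72 HAI 13 were called upwards in total mRNA and 11 in polysomal mRNA, where 33.0% and 30.2% of all genes were, with medians of 2.31 and 2.25. Without replicate 3 of polysomal mRNA at 72 HAI 11 were again called, with a median of 2.21, where 61.1% of all genes were called in either direction. In polysomal mRNA, where SIG1 and SIG6 rose from dry seeds to 6 HAI, 0 of the 15 loci were called in that interval. Of all genes 32.1% were called there. At an unadjusted p below 0.05, 1 of the 15 was up and 8 were down, and the share of all genes at that limit was not computed.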

How the data were processed

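The authors deposited RMA signals in log2 units, for which they corrected the background, quantile-normalised the 30 arrays at the probe level and summarised the probes to one signal per gene with R and Bioconductor. The table was not filtered for noise, no array repeated another, and 0 further columns of sample values were left unused. The methods and the labels name different labelling kits, and which was used was not settled. The molecule is labelled total RNA for polysomal arrays also, so the fraction was taken from the sample titles.

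Genes above 4 in all 3 replicates of a group were tested (17061 of 27827). In R 4.3.3, limma 3.58.1 fitted the 10 group means to all 30 arrays with empirical Bayes moderation, and p-values were adjusted by Benjamini-Hochberg within each of 19 comparisons. The fit was tested on simulated data. An array has no read depth, and its precision is limited by the 3 replicates and by the signal over background. Levels of different genes were not compared.

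The members and the gene lists were chosen with earlier results of these data known. Named outside the members are RPOTm, list genes called in a comparison described, and for each member the 2 genes with the highest Pearson r. Tissue markers, SIB1, which was not tested, and the listed plastid loci that were in the table are named in addition. Symbols came from RefSeq (TAIR10.1), in which 27241 loci and 8 of 8 members were found, and no coordinates were used. Protein and promoter sequences were not analysed here.

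Same-numbered total and polysomal arrays deviated together only weakly, although 12 of 15 correlated best with their own number. The main fit did not take the numbers as pairs. The alternatives tried were other noise filters, equal array medians, a further quantile normalisation and a fit of the compared groups alone. Others were an intensity trend with robust moderation, array weights, a replicate block over all arrays, no limit on the fold and each array left out. For the occupancy comparisons a replicate block within time points was also tried. It enters the tallies of alternatives below, but its values are not printed, so the occupancy p-values given are those of the unpaired fit.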

Additional observations from a re-analysis of the deposited data

Results flagged for a closer look

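The changes of 2 members differed between the RNA fractions by the test of the difference itself, in which the change from dry seeds to 6 HAI in total mRNA is subtracted from that in polysomal mRNA. The value was -1.2365 for SIG2 (SE 0.26, adjusted p = 0.002286, limma) and -1.5604 for RPOTmp (SE 0.26, adjusted p = 0.000342). In both genes every array of total mRNA at 6 HAI was above every array of total mRNA from dry seeds. For RPOTmp every polysomal array at 6 HAI was below every polysomal array of dry seeds, while for SIG2 these overlapped.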

How the results depend on the processing

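No called change of a member or of RPOTm reversed its direction under any alternative. Among uncalled changes the sign turned 76 times, with changes of at most 0.30 in size on either side. Over all comparisons and alternatives that used every array, the log2 changes of the 8 members and RPOTm kept their side of the limits 1708 times, gained a call 58 times and lost one 6 times. One of these alternatives is the main fit with no limit on the fold. It can only add calls, so the gains from it say nothing about the processing. Where no limit was set on the fold, the members called in total mRNA numbered 7 from dry seeds to 6 HAI, 6 from 6 to 26 HAI, 6 from 26 to 48 HAI and 7 from 48 to 72 HAI. In polysomal mRNA they then numbered 5 from 6 to 26 HAI, 4 from 26 to 48 HAI and 6 from 48 to 72 HAI. For polysomal minus total mRNA they were 5 in dry seeds, 3 at 6 HAI, 2 at 26 HAI and 3 at 48 HAI. For the occupancy change from dry seeds to 6 HAI they were 4. Without the fold limit, 55.4% of all genes were called in the first interval of total mRNA and 35.1% in its last. For polysomal minus total mRNA in dry seeds the share was 20.4%. Elsewhere that share is not given, so those counts do not set the members apart from other genes. A further quantile normalisation gave 2 members from dry seeds to 6 HAI (SIG1 and SIG6) and 4 from 48 to 72 HAI (SIG1, SIG3, SIG5 and RPOTp) in total mRNA, and 1 (RPOTmp) for the first occupancy change. Equal array medians and array weights each left 1 member (RPOTp) in total mRNA from 48 to 72 HAI. The share of all genes called in these refits is not given, so their counts do not set the members apart either. Equal medians also moved the median of all genes by -0.53 in total and -0.44 in polysomal mRNA from dry seeds to 72 HAI. For the PAP genes in total mRNA equal medians left 4 called from 6 to 26 HAI and 2 from dry seeds to 72 HAI. With no limit on the fold these were 12 and 10, again without a share of all genes to set beside them. The counts of PAP genes and of regulators moved in 26 and 16 cases with all arrays, and in 11 and 9 with an array left out. A move is a change by a factor above 1.5, or one to or from 0. The cases with all arrays include those with no limit on the fold, which can only raise a count. Apart from that, the cause of these moves was not tested.

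With single arrays left out, 1 to 3 members were called in total mRNA from dry seeds to 6 HAI. The 3 came without replicate 1 of dry seeds (SIG2, SIG6 and RPOTmp) or replicate 1 of 6 HAI (SIG1, SIG6 and RPOTmp), and without replicate 2 of dry seeds 2 were called. From 48 to 72 HAI 1 to 3 were called in total mRNA, with 1 without replicate 1 of 48 HAI, and 2 to 4 in polysomal mRNA. For polysomal minus total mRNA in dry seeds the range was 0 to 2, with 2 (SIG2 and RPOTmp) without replicate 1 of total mRNA, and for the occupancy change from dry seeds to 6 HAI 2 to 4, with 4 without replicate 1 of polysomal mRNA at 6 HAI. In total mRNA from 6 to 26 HAI and from 26 to 48 HAI the ranges were 2 to 3. The share of all genes called in these refits is not given here, so the ranges show only how the members' own calls moved. With the replicate block over all arrays no count of members moved, and 2 were still called for the first occupancy change. Same-numbered total and polysomal arrays correlated in their deviations at -0.002 to 0.201 over 15 pairs, of which 2 were above 0.1, and 12 correlated best with their own number. Levels under 4, as of RPOTmp after 26 HAI and SIG1 in dry seeds, limit the size that can be measured.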
